A study of Macaca mulatta with 18 samples.

Results

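Axon guidance ligands and their receptors were examined in the brains of rhesus monkeys (Macaca mulatta) of Chinese and Indian origin. The genes were chosen by symbol from the deposited gene tables, and comprised class 3 to 7 semaphorins, plexins, neuropilins, ephrins, Eph receptors, netrins and netrin-G proteins, Slits, Robo receptors, the UNC5 receptors and DCC. This gave 67 genes of 30246 gene IDs, each with 1 locus. There were 19 semaphorins, 11 plexins and neuropilins, 8 ephrins, 12 Eph receptors, 5 netrins, 5 netrin receptors, 3 Slits and 4 Robo receptors.

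Guidance ligands are secreted or membrane-bound proteins that steer growing axons by attracting or repelling the growth cone. Secreted class 3 semaphorins bind neuropilins, which signal through plexins, and most other semaphorins bind plexins directly. Ephrins and Eph receptors signal between touching cells in both directions, netrins act through DCC and UNC5 receptors, and Slits act through Robo receptors. In the adult brain many of these proteins remain at synapses, on glia and on blood vessels, where they are known for roles in synapse and spine maintenance and in vessel growth.

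RNA was sequenced from the cerebellum (CER), the striatum (STR) and the prefrontal cortex (PFC). The tissue came from 3 monkeys of Chinese origin, aged 10.5, 11 and 11.5 years, and 3 monkeys of Indian origin, aged 7.5, 15 and 16 years, and each monkey gave all 3 regions. All monkeys ate the same stock diet with seasonal fruits and vegetables, those of Chinese origin came to the primate center as young adults, and those of Indian origin were born there. The question asked was whether origin goes with differences in brain gene expression, and the tables also allow the regions to be compared within each origin.

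Each region table gave 1 pooled FPKM (fragments per kilobase of exon, scaled to the mapped fragments of the library) per gene and origin. Values of single monkeys were not analysed here and the columns of the authors' own test were not used, so no error or test is given and differences are described by their size. The tables give no read counts per gene. In bulk tissue, fewer cells of a type and less RNA per cell cannot be told apart. The dissections carried their regional markers. All 10 striatal projection neuron markers were at least 2-fold higher in STR than in PFC and at least 2-fold lower in CER than in STR in both origins, and all 10 cerebellar granule and Purkinje cell markers were at least 2-fold higher in CER than in either other region.

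None of the 67 genes was listed at 0 in any of the 6 pools. Mean FPKM of the pools compared was at least 1 for 60 genes in CER, 60 in STR and 61 in PFC, and at least 10 for 26, 24 and 30 of them in the same regions. The genes under 1 FPKM were EPHA2, EPHA3, EPHB4, EPHB6, SLIT2, SEMA3D and SEMA5B in CER, EPHA1, EPHA2, EPHA3, EPHA8, EPHB4, NTN3 and SEMA3D in STR, and EPHA1, EPHA2, EPHA8, EPHB4, NTN1 and SEMA3D in PFC. The low group was thus made up largely of Eph receptors, and EPHA2, EPHB4 and SEMA3D were low in every region. The highest region was the same in both origins for 55 genes, of which 18 were highest in CER, 12 in STR and 25 in PFC. It differed between the origins for the other 12. The highest region was not counted over all genes.

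**Figure D1:**
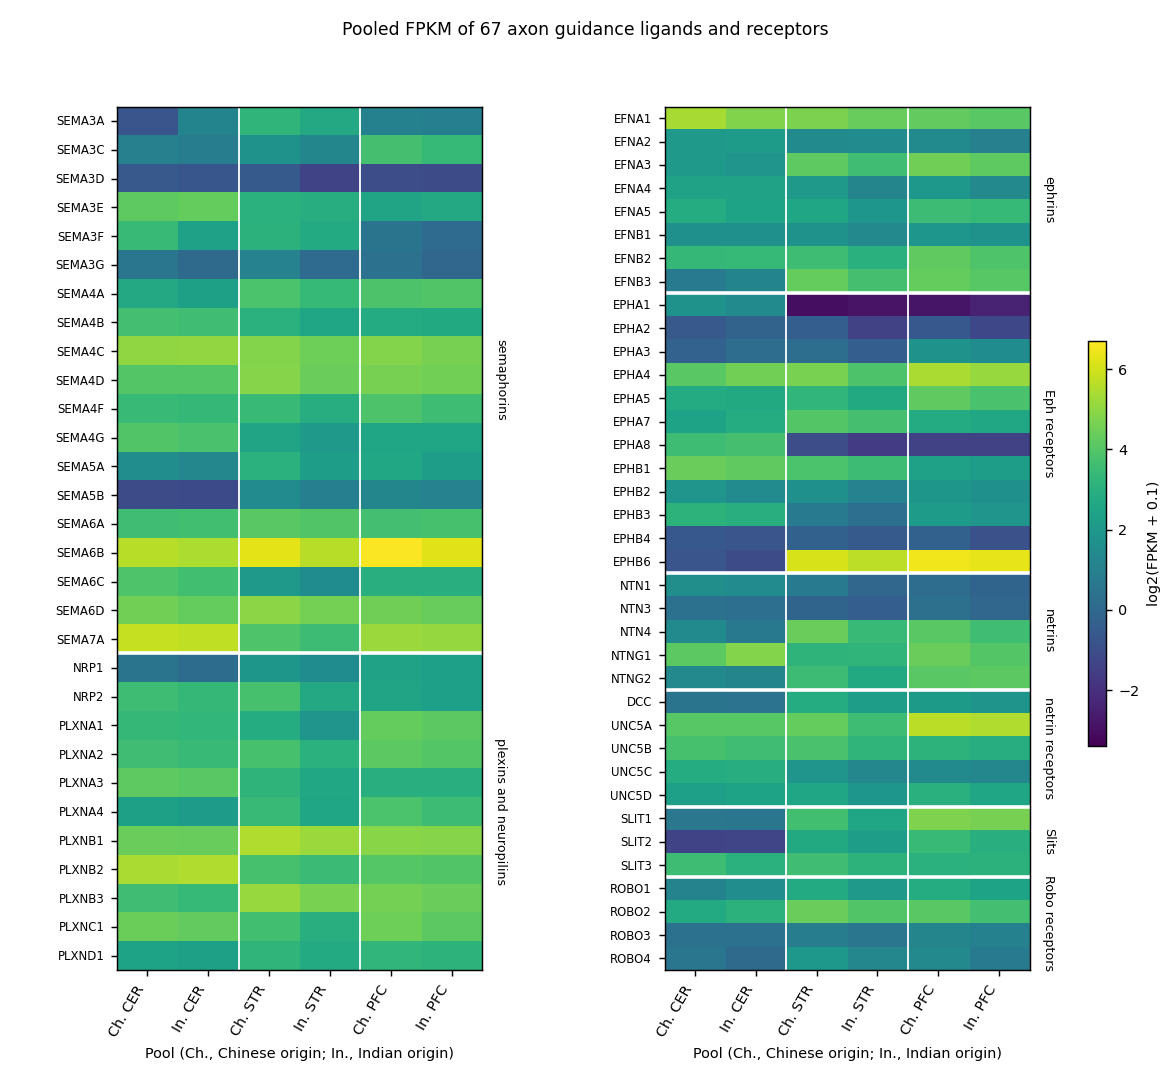
Heat map of log2(FPKM + 0.1) for the 67 guidance genes (rows, by family) in the 6 pools (columns, Chinese origin left of Indian origin within each region). SEMA6B and EPHB6 are the brightest rows in PFC and STR, and EPHB6 turns dark in CER, where SEMA7A is the brightest.

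Regions were compared as log2 ratios of FPKM + 0.1 within each origin, relative to the median ratio of all genes with a mean of at least 1 FPKM, and a difference was counted where it was at least 2-fold in both origins. The regions were normalised in separate tables and sequenced in separate lanes, so region and table cannot be told apart. In CER against PFC, 8 of 64 guidance genes were higher, where 9.17% of all genes were, and 21 were lower, where 10.4% of all genes were. The median over the 64 genes was -0.69 on the log2 scale, against 0.03 over all genes. Without subtraction of the median, 11 genes were higher and 16 lower, counts not made over all genes, and the median was -0.47. In CER against STR, 8 of 62 genes were higher (10.1% of all genes) and 18 were lower (12.3% of all genes), with a median of -0.20, or 0.02 without the subtraction. In STR against PFC, 4 of 61 genes were higher (3.23% of all genes) and 9 were lower (4.73% of all genes). Over all genes, too, the shares were larger in the 2 pairs with CER than in STR against PFC. Of the guidance genes, 13 were lower in CER than in both other regions and 4 were higher. PFC was higher than both other regions for 6 genes and lower for 2, and STR was higher for 2 and lower for 2. In all, 39 genes met the 2-fold rule in at least 1 pair of regions. These counts across pairs were not made over all genes, so they are not read as particular to the guidance genes. Without subtraction of the median, SEMA5A was no longer 2-fold lower in CER, nor were PLXNA1, PLXNB3, ROBO1 and SEMA6B against PFC, or EPHA7, PLXNB1 and ROBO2 against STR, and EFNA5 and EPHA5 were no longer 2-fold lower in STR than in PFC. Gained at that setting as higher in CER were NRP2, PLXNA3 and SEMA4G against PFC, and PLXNA3 against STR. Without loci that the tables mark as FAIL, Cuffdiff's flag for a numerical failure, 23 of the 29 differences between CER and PFC were left, 22 of 26 between CER and STR and 11 of 13 between STR and PFC. The genes lost in this way were NRP1, PLXNB2, SEMA5B and SLIT1 in both pairs with CER, ROBO1 for CER against PFC, SEMA3F in both pairs with PFC and SLIT1 also for STR against PFC.

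**Figure D2:**
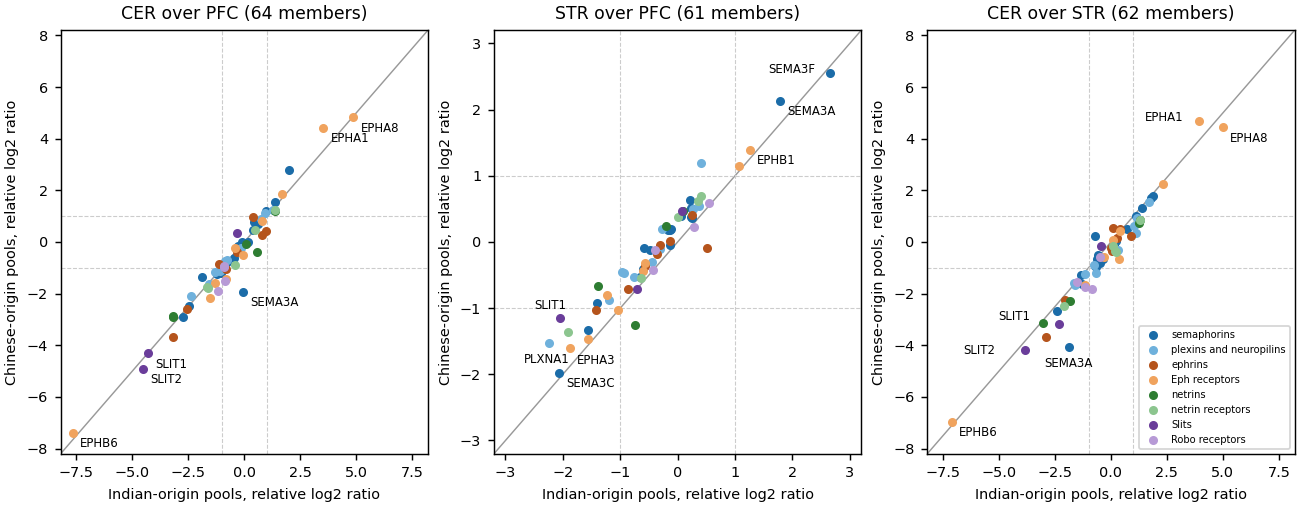
Relative log2 ratio between regions in the Chinese-origin pools (vertical axis) against the Indian-origin pools (horizontal axis), 1 point per guidance gene, coloured by family. Dashed lines mark 2-fold and the grey diagonal equal ratios; points lie near the diagonal, from EPHB6 for CER over PFC (-7.39 in Chinese-origin and -7.66 in Indian-origin pools) to EPHA8 (4.83 and 4.88 in the same order), and SEMA3A lies off it in both panels with CER.

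The secreted class 3 semaphorins differed among themselves in their highest region. SEMA3C, a ligand of both neuropilins known for vascular and cardiac outflow development, lies on chromosome 3 (136387247 to 136563458 in mmul1, the build of the tables). In Chinese-origin monkeys it had 1.89 FPKM in CER, 3.40 in STR and 13.2 in PFC, and in Indian-origin monkeys 1.73 in CER, 2.28 in STR and 10.1 in PFC. It was thus a PFC gene in both origins, 3.88-fold above STR in Chinese-origin and 4.42-fold in Indian-origin monkeys. SEMA3A, the prototype repellent that binds NRP1 (chromosome 3, 133134849 to 133293327), was instead highest in STR. Its FPKM in Chinese-origin monkeys was 0.50 in CER, 9.21 in STR and 1.94 in PFC, against 2.13 in CER, 6.42 in STR and 1.84 in PFC of Indian-origin monkeys. STR exceeded PFC 4.75-fold in Chinese-origin and 3.50-fold in Indian-origin monkeys, while the distance from STR to CER was 18.4-fold in Chinese-origin and 3.02-fold in Indian-origin monkeys. The 18.4-fold distance rests on a CER value of 0.50 FPKM.

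SEMA3F, a high-affinity ligand of NRP2, was low in PFC and higher in both other regions. Chinese-origin monkeys had 10.8 FPKM in CER, 8.38 in STR and 1.30 in PFC, and Indian-origin monkeys had 5.05 in CER, 6.68 in STR and 0.997 in PFC. SEMA3E, which binds PLXND1 without a neuropilin, was highest in CER, with 18.3 FPKM in the Chinese-origin and 19.7 in the Indian-origin pool of CER. It had 8.22 and 5.54 FPKM in STR and PFC of Chinese-origin monkeys and 7.32 and 6.33 in those of Indian-origin monkeys. Its receptor PLXND1 was lowest in CER, at 5.38 FPKM in Chinese-origin and 5.02 in Indian-origin monkeys, and between 6.82 and 9.52 in the STR and PFC pools, which did not reach 2-fold in both origins.

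Among the membrane-bound semaphorins, SEMA6B, a class 6 semaphorin that binds class A plexins, was the highest family member in PFC and STR. It had 48.7 FPKM in CER, 78.1 in STR and 100.1 in PFC of Chinese-origin monkeys, and 44.3 in CER, 49.4 in STR and 76.7 in PFC of Indian-origin monkeys. SEMA7A, the GPI-anchored semaphorin whose receptors are PLXNC1 and integrins, led in CER with 56.4 and 52.9 FPKM in Chinese-origin and Indian-origin monkeys. It stood at 15.0 and 36.6 FPKM in STR and PFC of Chinese-origin monkeys and at 11.3 and 34.1 in those of Indian-origin monkeys, so that STR was the low region. SEMA4A, SEMA5A and SEMA5B were lower in CER than in both other regions, and SEMA5B, a transmembrane semaphorin with thrombospondin repeats, was furthest down, with 0.378 FPKM in the Chinese-origin and 0.355 in the Indian-origin pool of CER. SEMA4G and SEMA6C were higher in CER than in STR. The SEMA4G and SEMA4A loci overlap MRPL43 and SARNP, and since the library kit does not keep strand, reads of such neighbours cannot be fully separated.

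Of the receptors for semaphorins, PLXNB2, which carried the FAIL flag in CER and STR, was the only plexin that met the 2-fold rule for CER above both other regions. PLXNA3 was also highest in CER, and passed 2-fold over both other regions only without subtraction of the median. It had 18.5 FPKM in CER, 8.91 in STR and 7.51 in PFC of Chinese-origin monkeys. In Indian-origin monkeys it had 17.3 in CER, 6.17 in STR and 7.60 in PFC. PLXNB2 is a SEMA4C and SEMA4D receptor needed for granule cell precursor migration in the mouse cerebellum, and had 43.2 FPKM in CER, 13.6 in STR and 16.2 in PFC of Chinese-origin monkeys. Indian-origin monkeys had 45.0 FPKM in CER, 11.0 in STR and 15.3 in PFC. PLXNB1, another class 4 semaphorin receptor, was the highest member of the family in STR, with 45.1 and 36.7 FPKM in Chinese-origin and Indian-origin monkeys, and PLXNB3, a SEMA5A receptor of oligodendrocytes, was also highest there, at 35.5 and 25.1. The 8 oligodendrocyte markers were each at least 2-fold lower in CER than in STR in both origins, as PLXNB1 and PLXNB3 were. The part of this in the plexin difference was not tested.

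NRP1, the SEMA3A co-receptor that also binds VEGF, was low in CER. It had 1.31 FPKM in CER, 3.75 in STR and 5.25 in PFC of Chinese-origin monkeys and 1.04 in CER, 2.74 in STR and 4.80 in PFC of Indian-origin monkeys. PLXNA1 and PLXNA4, which signal with the neuropilins, were both lower in CER than in PFC, and PLXNA1 was lower in STR than in PFC too. PLXNA1 had 10.1, 7.11 and 19.8 FPKM in CER, STR and PFC of Chinese-origin monkeys, and 9.77, 3.59 and 17.6 in CER, STR and PFC of Indian-origin monkeys.

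The widest regional differences of all were in the Eph receptors. EPHB6 (chromosome 3, 180504959 to 180517490), a member whose kinase domain is inactive, was among the highest guidance genes in STR and PFC and close to the floor in CER. It had 0.497 FPKM in CER, 67.9 in STR and 88.9 in PFC of Chinese-origin monkeys, against 0.373 in CER, 51.7 in STR and 80.3 in PFC of Indian-origin monkeys. PFC exceeded CER 179-fold in Chinese-origin and 215-fold in Indian-origin monkeys. EPHA8 (chromosome 1, 25152411 to 25190137) had the opposite pattern. It had 11.8 FPKM in CER, 0.400 in STR and 0.272 in PFC of Chinese-origin monkeys, and 13.0 in CER, 0.231 in STR and 0.274 in PFC of Indian-origin monkeys. EPHA1, which lies near EPHB6 on the same chromosome (180942207 to 180959343), was likewise a CER gene, at 3.29 FPKM in Chinese-origin and 2.50 in Indian-origin monkeys. In the STR and PFC pools EPHA1 lay between 0.0214 and 0.0887 FPKM, levels at which a fold has little meaning.

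Several other Eph receptors also differed by region, at levels above 1 FPKM in most pools. EPHB1 was lowest in PFC, with 20.9 FPKM in CER, 14.0 in STR and 5.07 in PFC of Chinese-origin monkeys and 18.5 in CER, 11.3 in STR and 4.71 in PFC of Indian-origin monkeys. EPHB3 was lowest in STR, at 1.56 FPKM in Chinese-origin and 1.12 in Indian-origin monkeys, and had 8.54 and 7.43 FPKM in CER of Chinese-origin and Indian-origin monkeys. EPHA7 was the only Eph receptor highest in STR in both origins, at 16.1 and 13.0 FPKM in Chinese-origin and Indian-origin monkeys. EPHA3 and EPHA5, receptors for the A-type ephrins, were higher in PFC than in both other regions. EPHA5 had 18.8 FPKM in PFC of Chinese-origin and 13.9 in PFC of Indian-origin monkeys, and between 6.54 and 9.47 in the other 4 pools.

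Of the ephrins, EFNB3, the transmembrane B-type ligand known as a midline barrier to corticospinal axons in the mouse, differed most by region. It had 1.61 FPKM in CER, 19.7 in STR and 19.6 in PFC of Chinese-origin monkeys, and 2.13 in CER, 13.3 in STR and 16.7 in PFC of Indian-origin monkeys. EFNA3 was also lowest in CER, with 4.14 FPKM in CER, 18.1 in STR and 22.6 in PFC of Chinese-origin monkeys and 3.59 in CER, 11.99 in STR and 18.0 in PFC of Indian-origin monkeys. EFNA5 was lower in STR than in PFC, and EFNA1 was the highest ephrin in CER, at 41.7 FPKM in Chinese-origin and 27.6 in Indian-origin monkeys. EFNA2 lay between 1.87 and 4.50 FPKM and was highest in CER in both origins. The A-type ligand listed as EFNA4 in the tables carries the symbol EFNA3 in the reference annotation, so its identity is uncertain.

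**Figure D3:**
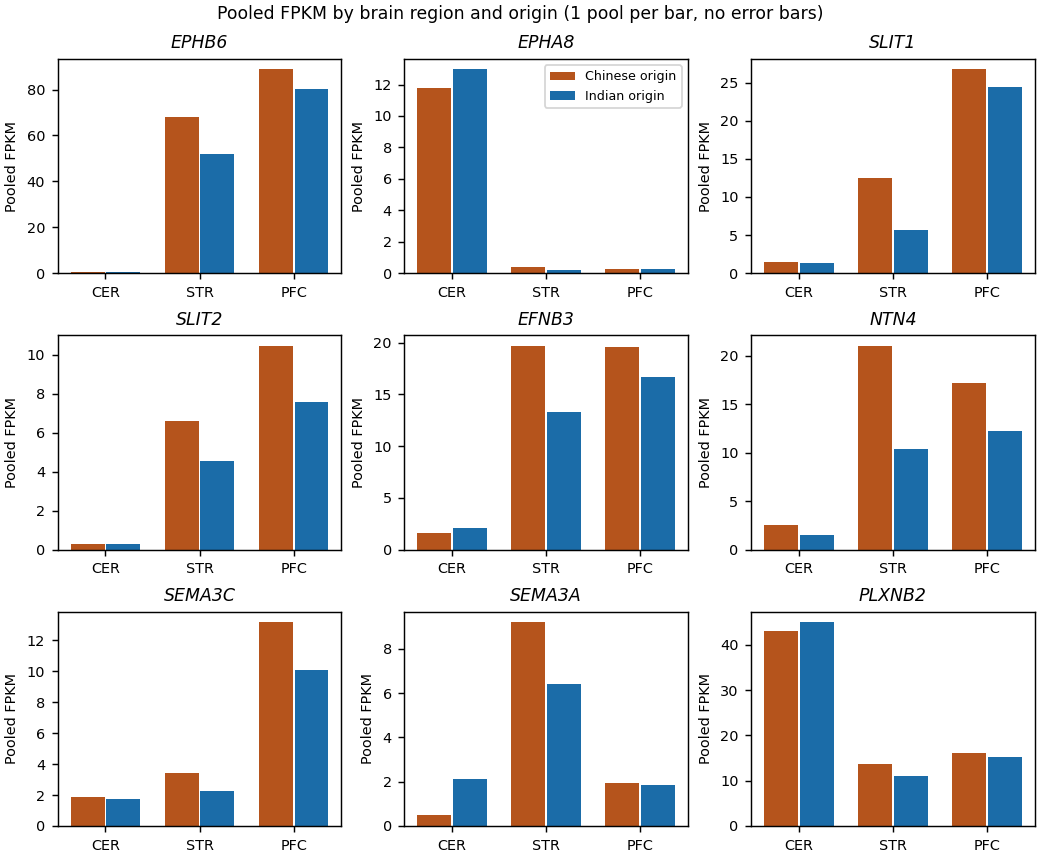
Pooled FPKM of 9 guidance genes (1 panel each, vertical axis from 0) in CER, STR and PFC, with the Chinese-origin pool left of the Indian-origin pool. EPHB6, SLIT1, SLIT2, EFNB3 and NTN4 are near the baseline in CER, EPHA8 is near it in STR and PFC, PLXNB2 is highest in CER, SEMA3C in PFC and SEMA3A in STR.

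SLIT1 and SLIT2, secreted repellents that bind Robo receptors, were both PFC-high and CER-low. SLIT1 (chromosome 9, 96579796 to 96879578) had 1.43 FPKM in CER, 12.5 in STR and 26.7 in PFC of Chinese-origin monkeys, and 1.37 in CER, 5.71 in STR and 24.5 in PFC of Indian-origin monkeys. SLIT2 (chromosome 5, 15037162 to 15403015) had 0.298 FPKM in CER, 6.59 in STR and 10.5 in PFC of Chinese-origin monkeys, and 0.305 in CER, 4.55 in STR and 7.59 in PFC of Indian-origin monkeys. The third family member did not share this order. SLIT3 lay between 8.10 and 11.9 FPKM in all 6 pools. Their receptors were also lower in CER: ROBO1 against PFC, and ROBO2 and ROBO4 against STR. ROBO2, the highest Robo receptor, had 6.81 FPKM in CER, 20.9 in STR and 17.3 in PFC of Chinese-origin monkeys and 8.39 in CER, 15.3 in STR and 12.8 in PFC of Indian-origin monkeys. ROBO4 is known as the endothelial member, and the 7 endothelial and mural cell markers had a median CER over STR ratio of -0.98 on the log2 scale, whose part in the ROBO4 difference was not tested.

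Among the netrins, NTN4, a basement membrane netrin, and NTNG2, a GPI-anchored ligand of LRRC4, were low in CER. NTN4 (chromosome 11, 96878760 to 97006239) had 2.54 FPKM in CER, 21.0 in STR and 17.2 in PFC of Chinese-origin monkeys, and 1.51 in CER, 10.4 in STR and 12.2 in PFC of Indian-origin monkeys. NTNG2 had 2.48 FPKM in CER, 11.3 in STR and 17.2 in PFC of Chinese-origin monkeys, and 2.22 in CER, 6.55 in STR and 17.5 in PFC of Indian-origin monkeys. NTN1, the classical attractant, was scarce but higher in CER, with 2.88 and 2.70 FPKM in Chinese-origin and Indian-origin monkeys and between 0.804 and 1.55 in the other 4 pools. Its receptors differed in their region. DCC, which mediates attraction, was low in CER, with 1.31 FPKM in CER, 7.14 in STR and 4.22 in PFC of Chinese-origin monkeys and 1.26 in CER, 4.53 in STR and 3.44 in PFC of Indian-origin monkeys. UNC5A, a repulsion receptor, was highest in PFC, at 49.7 FPKM in Chinese-origin and 44.5 in Indian-origin monkeys, and UNC5C, whose loss in the mouse gives the rostral cerebellar malformation, was higher in CER than in PFC, at 7.19 and 7.38 FPKM in Chinese-origin and Indian-origin CER.

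The proteins that act beside or downstream of these receptors were described from a list of 52 genes. In CER against PFC, 4 of 48 measured genes were higher (8.33%, against 9.17% of all genes) and 14 lower (29.2%, against 10.4%). In CER against STR, 8 were higher (16.7%, against 10.1% of all genes) and 10 lower (20.8%, against 12.3%). In STR against PFC, 1 was higher (2.08%, against 3.23% of all genes) and 9 were lower (18.8%, against 4.73%). NGEF (ephexin-1), the guanine nucleotide exchange factor that acts below EphA receptors, had 1.29 FPKM in CER, 223 in STR and 139 in PFC of Chinese-origin monkeys, and 0.724 in CER, 179 in STR and 105 in PFC of Indian-origin monkeys. CHN1, a Rac GTPase-activating protein below EphA4, was lower in CER than in both other regions. Its relative CHN2, which carried the FAIL flag in STR, was higher in CER. SRGAP1, a Slit-Robo GTPase-activating protein, was the gene of the list higher in STR than in PFC, with 7.72 FPKM in the Chinese-origin and 5.21 in the Indian-origin pool of STR, and in PFC 1.04 in Chinese-origin and 0.737 in Indian-origin monkeys.

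The ratios between regions were then set side by side in the 2 origins. The median absolute region ratio was 1.05 on the log2 scale for CER over PFC, 0.96 for CER over STR and 0.48 for STR over PFC. The same ratio differed between the origins by a median of 0.17, 0.27 and 0.27 in these pairs, and it had the same direction in both origins for 61 of 64, 53 of 62 and 54 of 61 genes. Agreement between the origins was not counted over all genes. The largest disagreement was that of SEMA3A, by 1.88 for CER over PFC and 2.21 for CER over STR, both with its Chinese-origin CER value of 0.50 FPKM. For STR over PFC it was that of SLIT1, by 0.91.

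The origins were then compared within each region as Chinese over Indian, again relative to the median ratio of all genes with a mean of at least 1 FPKM, and a difference was counted from 1.5-fold. That median was itself above 0 in each region, at 0.10 in CER, 0.31 in STR and 0.19 in PFC on the log2 scale, so deposited values ran higher in the Chinese-origin pools for most genes. In PFC, 0 of 61 guidance genes were counted in either direction, where 5.15% of all genes were higher and 5.52% lower in Chinese-origin monkeys. Ratios ran between -0.38 for SEMA3E and 0.43 for EFNA4, with a median of -0.0015. This range was narrower than that in CER or STR.

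In CER, 2 of 60 guidance genes were higher in Chinese-origin monkeys, where 6.19% of all genes were, and 2 were lower, where 5.99% of all genes were. The largest difference was in SEMA3A, with 0.50 FPKM in the Chinese-origin and 2.13 in the Indian-origin pool of CER (relative log2 ratio -1.99). Its mean was 1.31 FPKM, and it passed the filter of 1 FPKM through the Indian-origin pool, so the ratio rests on a low value. SEMA3F went the other way, with 10.8 FPKM in the Chinese-origin and 5.05 in the Indian-origin pool of CER (0.98). NTN4 had 2.54 FPKM in the Chinese-origin and 1.51 in the Indian-origin pool of CER (0.61), a difference that fell short of the fold with a pseudocount of 1 FPKM (0.40). NTNG1, a GPI-anchored netrin-G that binds LRRC4C, had 17.6 FPKM in the Chinese-origin and 28.1 in the Indian-origin pool of CER (-0.78). The neuropilins that receive these semaphorins differed less: NRP1 had 1.31 FPKM in the Chinese-origin and 1.04 in the Indian-origin pool of CER (0.21), and NRP2 had 11.8 in Chinese-origin and 9.86 in Indian-origin monkeys (0.15). In CER, SEMA3F and NTNG1 carried the FAIL flag, and so did both neuropilins, NRP1 and NRP2. Without flagged loci, 1 gene was higher and 1 lower.

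Markers of another tissue moved with origin in CER. All 6 choroid plexus markers were at least 1.5-fold lower in Chinese-origin CER, with a median relative log2 ratio of -1.82 and a summed level of 659 FPKM, against 2102 in Indian-origin CER. None of them was at 0, and TTR made up most of the sum, with 640 FPKM in Chinese-origin and 2060 in Indian-origin monkeys. The part of these cells in the SEMA3A and NTNG1 differences was not tested. The 10 cerebellar granule and Purkinje cell markers had a median of -0.01, and 0 of them were counted.

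In STR, 6 of 60 guidance genes were higher in Chinese-origin monkeys, where 7.65% of all genes were, and 0 were lower, where 5.12% of all genes were. The share of 10% was close to that background. SLIT1 had 12.5 FPKM in the Chinese-origin and 5.71 in the Indian-origin pool of STR (relative log2 ratio 0.81). NRP2, the neuropilin that binds SEMA3F, had 13.4 FPKM in Chinese-origin monkeys and 6.31 in Indian-origin monkeys (0.77). NTN4 showed a difference of like size, with 21.0 FPKM in Chinese-origin and 10.4 in Indian-origin monkeys (0.70). SEMA3G, a class 3 semaphorin of the vessel wall, had 2.04 FPKM in the Chinese-origin and 0.990 in the Indian-origin pool of STR (0.66). Of the class A plexins, which signal with neuropilins, PLXNA1 had 7.11 FPKM in Chinese-origin and 3.59 in Indian-origin monkeys (0.66). PLXNA4 had 10.6 in Chinese-origin and 5.67 in Indian-origin monkeys (0.59). PLXNA2 (0.39) and PLXNA3 (0.22) of the same class were not counted, nor were NRP1 (0.135) and SEMA3F (0.02). SEMA3G, PLXNA1 and PLXNA4 lay just past the 1.5-fold line, and fell short of it at 0.58, 0.58 and 0.54 when the median was taken over genes of like FPKM. The NRP2 locus overlaps an unnamed gene that reached at most 6.595 FPKM, and reads of the pair cannot be fully separated. SLIT1 and NRP2 carried the FAIL flag in STR, and 4 genes were counted without flagged loci.

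**Figure D4:**
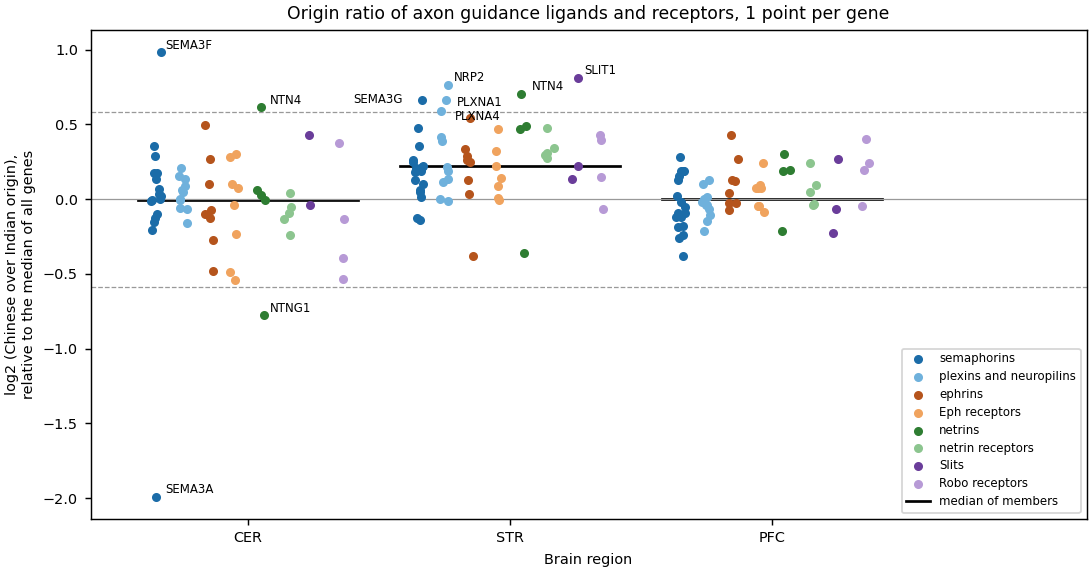
Relative log2 ratio of Chinese over Indian origin for each measured guidance gene (points, coloured and offset by family) in CER, STR and PFC, with the median of the members as a black line. Dashed lines mark 1.5-fold; all PFC points lie between them, 4 CER points lie outside, and in STR the median is 0.22 with 6 points above the upper line.

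The shift in STR was small for most genes but shared by most. In Chinese-origin STR 52 of 60 guidance genes lay above the median of all genes, and the median over the 60 was 0.22. Before subtraction of the median of all genes, 58 of 60 were above 0, as were 14641 of 16781 of all genes. The median was then 0.52, against 0.31 over all genes. At that setting 23 guidance genes were at least 1.5-fold higher, a count not made over all genes. The 5 netrin receptors lay between 0.28 and 0.47 and 9 of the 11 plexins and neuropilins lay above 0. Of the genes of the partner list, 34 of 48 lay above 0 with a median of 0.14. SRGAP3, which carried the FAIL flag, was counted as higher, with 11.3 FPKM in the Chinese-origin and 5.54 in the Indian-origin pool of STR (0.71). The genes below 0 in STR included NTNG1 (-0.36) and EFNA2 (-0.38).

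Cortical markers also moved with origin in STR. Of 9 cortical excitatory neuron markers, 8 were measured and 7 were at least 1.5-fold higher in Chinese-origin STR, with a median of 1.92. Their summed level was 90.7 FPKM in the Chinese-origin and 21.6 in the Indian-origin pool of STR, and none was at 0. SLC17A7 (VGLUT1), which loads glutamate into synaptic vesicles, had 59.6 FPKM in the Chinese-origin and 12.2 in the Indian-origin pool of STR, and in PFC 406 in the Chinese-origin and 351 in the Indian-origin pool. Of the 6 guidance genes counted in STR, SLIT1 and PLXNA1 were among those at least 2-fold lower in STR than in PFC. PLXNA4 was lower in STR than in PFC in both origins, short of 2-fold. NRP2 and SEMA3G were higher in STR than in PFC in both origins. NRP2 had 5.60 FPKM in PFC of Chinese-origin and 4.84 in PFC of Indian-origin monkeys, and SEMA3G had 1.22 and 0.855 in the same order. NTN4 was higher in STR than in PFC in Chinese-origin monkeys and lower in Indian-origin monkeys. These ratios to PFC use the same STR values as the origin ratios, so the 2 are not independent. The 10 striatal projection neuron markers summed to 3886 FPKM in the Chinese-origin and 3537 in the Indian-origin pool of STR, with a median of -0.19 and 0 counted. The 7 endothelial and mural cell markers ran between -0.01 and 0.44 with 0 counted. The part of cortical tissue in the STR differences was not tested.

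Between the regions, 9 guidance genes were counted in at least 1 region, and NTN4 was the gene counted in more than 1. Neither count was made over all genes. NTN4 was higher in Chinese-origin monkeys by 0.61 in CER and 0.70 in STR, and by 0.30 in PFC, where it had 17.2 FPKM in Chinese-origin and 12.2 in Indian-origin monkeys. Its locus overlaps an unnamed gene that reached at most 3.00 FPKM. SEMA3A, lower in Chinese-origin CER, had relative log2 ratios of 0.21 in STR and -0.12 in PFC, and SEMA3F, higher in Chinese-origin CER, had 0.02 in STR and 0.16 in PFC. SLIT1 and NRP2, higher in Chinese-origin STR, had ratios of -0.04 and 0.15 in CER and -0.06 and 0.01 in PFC. With 1 pool per origin and region, whether the origin ratios differ between regions could not be tested.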

How the data were processed

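RNA of 18 libraries (3 monkeys per origin in each of 3 regions) was sequenced by the authors as single-end reads of 50 bases after TruSeq preparation without strand information. The authors aligned reads to Ensembl mmul1 with TopHat for Illumina 1.5.0 and ran Cuffdiff (version 0.0.5 in the labels) separately for each region. The authors' deposited tables hold 1 FPKM per gene and origin, pooled over 3 monkeys. FPKM divides by exon length and library size, so it allows levels of genes to be set side by side, but an abundant transcript in 1 pool can shift all others. The 6 columns of the authors' own comparison (fold changes, test statistic, p-value, q-value and calls) were not used. The tables hold no read counts per gene, so no counting interval was given.

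A pseudocount of 0.1 FPKM was added before log2 ratios, genes with a mean under 1 FPKM over the pools compared were left out, and the median ratio of all remaining genes was subtracted. Differences were counted from 1.5-fold between origins and from 2-fold in both origins between regions. The comparison of origins was tested on simulated data with known changes, and the comparison of regions was not. Members and gene lists were chosen with earlier results of these data known. Named were members past these folds, the highest of each family and their partners. From the partner list some genes past the folds were named, not always those with the largest ratios. In STR, 1 repeated line was dropped. Of the member IDs, 61 had a symbol in the reference table of gene names and 60 had the same symbol. Alternatives were other pseudocounts, filters, folds and centring, and, chosen after seeing the data, leaving out flagged loci and adding 3 genes named only by the reference. Python 3.11.15, numpy 2.4.6, pandas 2.3.3 and matplotlib 3.10.9 were used.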

Additional observations from a re-analysis of the deposited data

How the results depend on the processing

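No paired analysis was possible because the tables hold 1 pooled value per origin and region, and for the same reason no monkey could be left out. No guidance gene past the fold changed direction under the alternatives run. With FPKM ratios as deposited, the median over the guidance genes was 0.19 in PFC and 0.52 in STR for Chinese over Indian origin, -0.47 for CER over PFC and 0.0226 for CER over STR, and 2 genes in PFC and 23 in STR were at least 1.5-fold higher in Chinese-origin monkeys. No count at this or the other alternative settings was made over all genes. With the median taken over genes of like FPKM (eighths), 3 were higher in STR, and with a pseudocount of 1 FPKM 3 were higher in STR and 1 in CER. With a 2-fold line, 0 were higher in STR, and in CER 0 were higher and 1 lower. With no filter on low values, 1 gene was lower in PFC, and the medians were -0.46 for CER over PFC and -0.0354 for CER over STR. A minimum of 5 FPKM left 1 gene higher and 1 lower in Chinese-origin CER, 4 higher in CER than PFC, 2 higher in STR than PFC, and 5 higher and 11 lower in CER than STR. With a 1.5-fold line between regions, 13 were higher in CER than PFC, 16 lower in STR than PFC and 13 higher in CER than STR. Without flagged loci, 1 was higher and 1 lower in CER between origins, and the median for CER over STR was -0.10. The cause of these shifts was not tested, except that the stricter filter and the removal of flagged loci leave fewer genes. The tables hold no read counts per gene, so the precision of ratios near 1 FPKM is not given.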

Other observations

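Of the guidance families, 3 further genes have no symbol in the tables and were named by the reference annotation only. EPHA10, an Eph receptor without kinase activity, had 1.64 FPKM in CER, 4.94 in STR and 6.21 in PFC of Chinese-origin monkeys, and 0.725 in CER, 3.92 in STR and 6.32 in PFC of Indian-origin monkeys, with a relative log2 ratio between origins of 0.98 in CER. EPHA6 was lower in CER than in both other regions, with 0.185 FPKM in the Chinese-origin and 0.417 in the Indian-origin CER pool and between 2.33 and 3.76 in the STR and PFC pools. SEMA3B lay between 10.6 and 15.2 FPKM in all 6 pools and carried the FAIL flag in each region.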
